A study of Mus musculus with 6 samples.

Results

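The SOX transcription factors of the neural lineage were measured in cultured mouse astrocytes whose Chd7 gene had been targeted. They were taken by gene symbol in the array's annotation: Sox1, Sox2, Sox3, Sox4, Sox5, Sox6, Sox8, Sox9, Sox10 and Sox11. Of these 10 genes, 9 were represented, each by 1 probe, among 19321 genes with a named probe on the array. Sox2 was not analysed here because no probe carried its symbol. The cells came from the cortex of newborn (P0) C57BL/6J mice with both Chd7 alleles floxed, and the medium of all cultures held FGF2, EGF, B-27 and 10% FBS. They carried a Cre lentivirus in 3 samples, labelled as Chd7 knockdown, and a control lentivirus in 3 samples, and were harvested 3 days after infection. Each sample was hybridised to its own single-colour array. The labels do not say what the control virus carried, and Cre was present only where Chd7 was targeted, so effects of the recombinase and of the loss of Chd7 cannot be told apart. In bulk RNA, fewer cells of a type and less RNA per cell cannot be told apart either.

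SOX proteins bind DNA through an HMG box related to that of the sex-determining factor SRY, and they usually act with partner proteins. The SOXB1 group (Sox1, Sox2, Sox3) keeps neural progenitors undifferentiated, the SOXC group (Sox4, Sox11) promotes neuronal differentiation, the SOXD group (Sox5, Sox6) modulates other SOX factors, and the SOXE group (Sox8, Sox9, Sox10) specifies glia. CHD7, an ATP-dependent chromatin remodeller, has been described in mouse as a partner of SOX2 in neural stem cells, as an activator of Sox4 and Sox11 in adult neurogenesis and as a partner of SOX10 in the oligodendrocyte lineage. The comparison asked whether the SOX genes differed between Cre and control cultures.

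The Sox4 and Sox11 promoters are shown because CHD7 has been reported to act there. Each line gives the 250 bases before the transcription start from RefSeq (GRCm38.p6), 5′ to 3′ on the gene's strand, with CG dinucleotides in capitals.
Sox4, chr13:28953700-28953949, minus strand: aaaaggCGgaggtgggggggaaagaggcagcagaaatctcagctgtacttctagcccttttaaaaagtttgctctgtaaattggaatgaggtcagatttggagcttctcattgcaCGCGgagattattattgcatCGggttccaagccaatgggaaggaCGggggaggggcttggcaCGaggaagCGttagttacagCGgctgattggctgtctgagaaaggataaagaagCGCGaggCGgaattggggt
Sox11, chr12:27342719-27342968, minus strand: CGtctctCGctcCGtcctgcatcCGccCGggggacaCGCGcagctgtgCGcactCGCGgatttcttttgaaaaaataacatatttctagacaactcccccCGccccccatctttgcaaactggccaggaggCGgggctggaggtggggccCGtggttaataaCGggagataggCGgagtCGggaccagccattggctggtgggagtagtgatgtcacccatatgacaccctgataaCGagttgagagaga
The Sox4 window holds 11 CG dinucleotides and the Sox11 window 17, against a median of 6.0 in 32851 such windows, of which 92.1% hold at least 1 and 35.6% and 23.5% hold at least as many as Sox4 and Sox11. Neither window contains ACAAAG or ACAATG, forms of the core SOX motif, on either strand, while 25.2% of all windows contain at least 1 of them. These are descriptions of the letters, and the arrays do not measure CHD7 or SOX binding.

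Intensities are given as log2 values after correction against the blank spots of each array and quantile normalisation. The correction adds an offset of 50 intensity units, which compresses the fold changes of dim probes, and levels of different probes cannot be compared. The limit for a probe above background was 2 SD over the blank mean of its array. Of all probes, 82.8 to 87.0% were above background on the Cre arrays and 87.4 to 90.7% on the control arrays. Any pair of arrays correlated at r of 0.985 to 0.995 across probes, which are not independent replicates. The brighter Chd7 probe read 6.00, 5.97 and 6.01 log2 units in Cre cultures, against 6.92, 7.49 and 6.95 in control cultures, a difference of -1.13 (SE 0.16), and the dimmer Chd7 probe differed by -0.11 (SE 0.06). All 3 Cre arrays thus lay below all 3 control arrays for the brighter probe, although it did not pass over all probes (limma adjusted p = 0.405). Of the labelled cell type's 20 markers, 20 were above background on all 6 arrays.

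No SOX gene differed detectably between the groups. Of the 9 genes, 8 were tested and 0 passed a limma adjusted p of 0.05 (percent of all 20540 probes that passed: 0). At an unadjusted p under 0.05 there were again 0 of 8, against 5.61% of all probes, and the groups overlapped for all 8, whereas they did not overlap for 10.5% of all probes. Cre values were higher for 4 genes and lower for 4, with a median log2 difference of 0.005, against -0.0006 over all probes. The differences ran between -0.17 (Sox4) and 0.09 (Sox1), while Chd7 itself differed by -1.13. Limma adjusted p-values were 0.996 to 0.999, and exact two-sided permutation tests gave p of 0.2 to 1, where 3 arrays against 3 cannot go below 0.1.

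**Figure D1:**
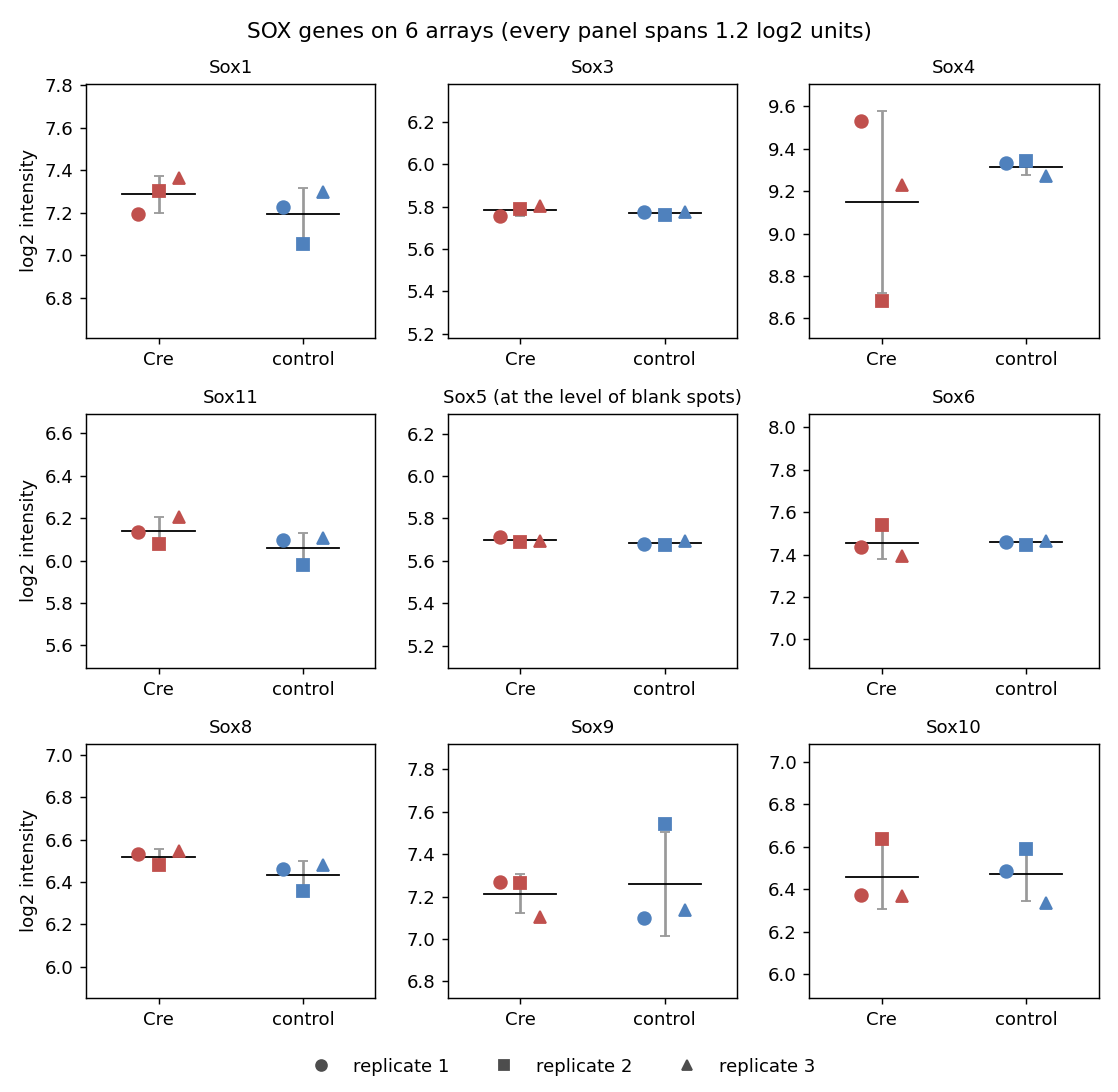
Log2 intensity (vertical axis) of the 9 SOX genes in Cre cultures (left, red) and control cultures (right, blue); points are arrays, shapes mark replicate numbers, black lines are means and grey bars are SD (n = 3). Every panel spans the same range on the log2 scale; the Cre and control points overlap in all 8 tested genes, Sox4 is low only in Cre replicate 2 (8.68), and Sox9 is high only in control replicate 2 (7.54).

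Among the SOXB1 genes, Sox1, a factor of neural progenitors, read 7.19, 7.30 and 7.37 log2 units in Cre cultures, against 7.23, 7.05 and 7.30 in control cultures. The groups overlapped, and the difference was 0.09 (SE 0.08, 95% interval -0.11 to 0.30). Sox3, an X-linked relative with the same role, read 5.75, 5.79 and 5.80 in Cre cultures and 5.78, 5.76 and 5.78 in control cultures. Its spot lay only 2.28 to 4.66 blank SDs above the blank mean on the Cre arrays and 3.80 to 4.98 on the control arrays, so that its level was close to background throughout. In the authors' deposited values Sox3 read 2, 3 and 3 in Cre cultures and 3 in each control culture, whole numbers too coarse to show a moderate change. With the blank mean simply subtracted, its difference was 0.11 with a 95% interval of 0.806- to 1.46-fold.

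Of the SOXC genes, Sox4 gave the largest difference and the largest spread. It read 9.53, 8.68 and 9.23 log2 units in Cre cultures, against 9.34, 9.34 and 9.27 in control cultures. Cre replicate 1 lay above all control arrays, Cre replicates 2 and 3 lay below them, and the control arrays lay between 9.27 and 9.34. The means were 9.15 ± 0.43 in Cre cultures and 9.32 ± 0.04 in control cultures (SD, n = 3 each), a difference of -0.17 (SE 0.21, 95% interval 0.618- to 1.28-fold). The residual SD of Sox4 was larger than that of 94.9% of probes. Without Cre replicate 2 the difference was 0.06, in the opposite direction, and without Cre replicate 1 it was -0.36. In the authors' deposited values Sox4 read 400, 185 and 321 in Cre cultures, against 344, 413 and 361 in control cultures.

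On Cre replicate 2, where Sox4 read low, its spot was no brighter than its surroundings, though 208 blank SDs above the blank mean. The Sox4 spot was 0.98 times its local background on that array, 2.31 and 1.32 times on Cre replicates 1 and 3, and 1.75 to 2.80 times on the control arrays. Such spots were common on that array: 25.5% of 1024 probes of a mean brightness similar to that of Sox4 were at or below their local background there, against 1.95% and 1.17% on Cre replicates 1 and 3 and 0 to 1.17% on the control arrays. Relative to the mean of the other 5 arrays, Sox4 was lower by 0.66 on Cre replicate 2, and 10 of the 1024 probes (Sox4 included) were as low or lower there. The 17 probes within 2 spots of it had a median deviation of -0.06 on the same array. The part of the spot in the Sox4 value was not tested.

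Sox11, the other SOXC gene, read 6.13, 6.08 and 6.21 log2 units in Cre cultures, against 6.10, 5.98 and 6.11 in control cultures. The groups overlapped, with a difference of 0.08 (SE 0.05). Replicate 2 was lowest in both groups, and the Cre array was higher in all 3 same-numbered pairs, by 0.04, 0.10 and 0.10. Sox11 was dim, and its interval depended on the offset: it was 0.961- to 1.16-fold with the offset and 0.889- to 1.70-fold with plain subtraction of the blank mean, where the difference was 0.30.

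In the SOXD group, Sox5 was at the level of the blank spots on all 6 arrays. Its spot lay 1.35, 0.312 and 1.08 blank SDs above the blank mean on the Cre arrays and 0.478, 0.391 and 1.21 on the control arrays, so it was not tested and no fold is given. Sox6, which holds oligodendrocyte precursors and, with Sox5 and Sox9, drives cartilage formation, read 7.44, 7.54 and 7.39 in Cre cultures, against 7.46, 7.45 and 7.47 in control cultures. Its difference of -0.002 (SE 0.05, 95% interval 0.920- to 1.08-fold) was the smallest in size of the 8 genes. With plain subtraction the interval widened to 0.803- to 1.24-fold.

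Among the SOXE genes, Sox9, which switches neural stem cells to glial fate and marks astrocytes, read 7.27, 7.26 and 7.11 log2 units in Cre cultures, against 7.10, 7.54 and 7.14 in control cultures. Control replicate 2 stood above the other 5 arrays, which lay between 7.10 and 7.27. The means were 7.21 ± 0.09 in Cre cultures and 7.26 ± 0.25 in control cultures (SD, n = 3 each), a difference of -0.05 (SE 0.13, 95% interval 0.772- to 1.21-fold). Without control replicate 2 the difference was 0.09, in the opposite direction. The authors' deposited values for Sox9 were 62, 53 and 51 in Cre cultures, against 52, 93 and 56 in control cultures.

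Sox8, a SOXE factor of oligodendrocytes with a supporting role beside Sox10, read 6.53, 6.48 and 6.55 log2 units in Cre cultures, against 6.46, 6.36 and 6.48 in control cultures. Its unadjusted p was the smallest of the 8 genes (0.119), at a difference of 0.09 (SE 0.05) and a limma adjusted p of 0.996. The Cre array was higher in each same-numbered pair, by 0.07, 0.12 and 0.07, but Cre replicate 2 lay just below control replicate 3, so the groups overlapped. Sox10, the factor that turns on myelin genes, read 6.37, 6.64 and 6.37 in Cre cultures, against 6.49, 6.59 and 6.34 in control cultures. Replicate 2 was highest in both groups, and the difference was -0.01 (SE 0.10, 95% interval 0.832- to 1.18-fold). Both genes were dim, and with plain subtraction the intervals were 0.906- to 1.455-fold for Sox8 and 0.670- to 1.42-fold for Sox10.

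**Figure D2:**
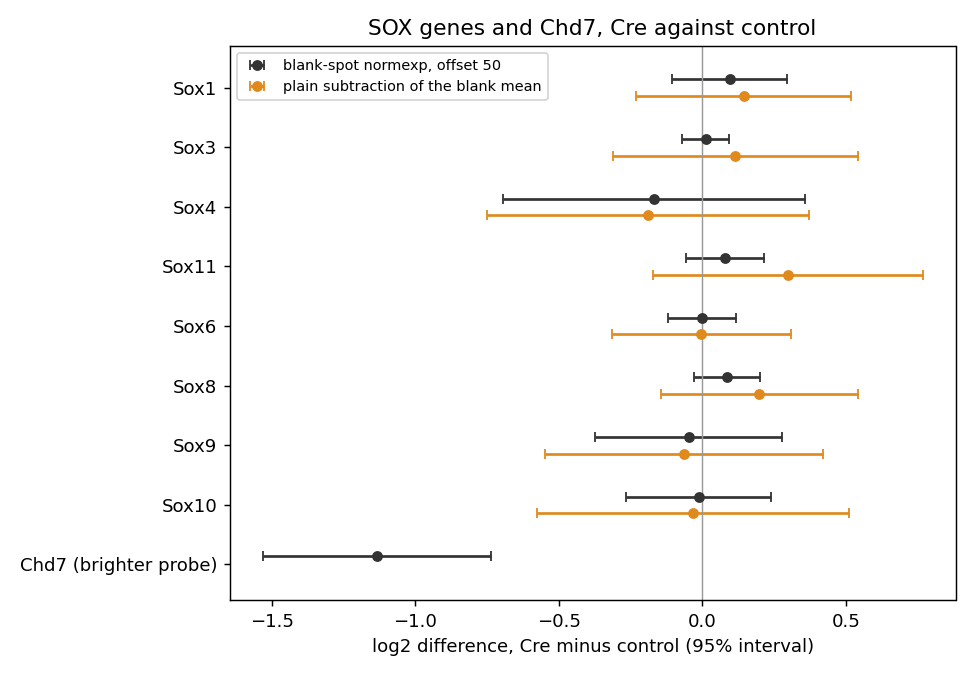
Log2 difference, Cre minus control, with its 95% interval (horizontal axis) for the 8 tested SOX genes under the reported setting (dark) and under plain subtraction of the blank mean (orange), and for the brighter Chd7 probe under the reported setting alone. All SOX intervals cross 0, and their outermost limits, -0.75 (Sox4) and 0.77 (Sox11), are from plain subtraction. The Chd7 interval runs from -1.53 to -0.74 under the reported setting, whose offset compresses differences of dim probes. With plain subtraction the Chd7 difference was -2.71 (not drawn).

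A difference in the same direction in all 3 same-numbered pairs was measured for 2 of the 8 genes, Sox8 and Sox11, against 30.1% of all probes. With the replicate number as a block in the fit, 0 of 8 genes reached an unadjusted p under 0.05, and the smallest was that of Sox8 (unadjusted p = 0.0819, limma adjusted p = 0.607). Under plain subtraction the intervals of the 8 genes together reached from 0.595-fold (Sox4) to 1.70-fold (Sox11). With the scanner's local background they were wider for Sox4 (0.187- to 2.01-fold), Sox9 (0.704- to 1.90-fold) and Sox10 (0.732- to 2.41-fold). The limits differ between genes, and each interval holds the changes compatible with the 3 arrays per group. It does not give the smallest change that would have been called. At the adjusted threshold even the brighter Chd7 probe, at -1.13, was not called (limma adjusted p = 0.405).

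The plot of the differences under other settings shows which genes keep a direction. Sox8 and Sox11 were higher in Cre cultures under all 17 alternatives run, at 0.04 to 0.20 and 0.04 to 0.30. These alternatives re-use the same arrays, so their agreement is not independent support. The share of all probes that keep a direction under all 17 was not computed, so these counts do not set Sox8 and Sox11 apart. Sox4 was lower under 15 of 17, the exceptions being those without Cre replicate 2. Sox9 and Sox10 were each lower under 13 of 17, and with the scanner's local background they stood at 0.21 and 0.41. In none of the 17 did any of the 8 genes reach an unadjusted p under 0.05 (limma), the smallest limma adjusted p being 0.596 (Sox6, the authors' values as deposited).

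**Figure D3:**
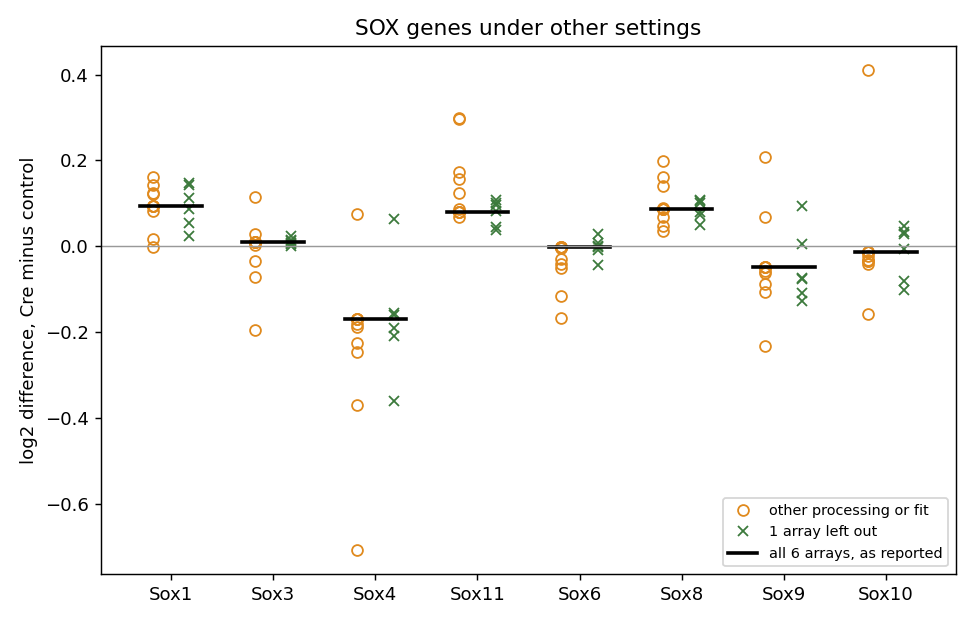
Log2 difference, Cre minus control (vertical axis), for the 8 tested SOX genes: black lines are the reported values, orange circles other background corrections, normalisations, filters and fits, and green crosses fits with 1 array left out. Sox4 ranges from -0.71 to 0.08, whereas every Sox8 and Sox11 point lies above 0. The points of a gene re-use the same arrays and are not independent.

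Of the 10 other genes in the SOX list, 7 were tested, and Sry, Sox14 and Sox17 were above background on at most 1 array. Groups did not overlap for 2 of the 7, against 10.5% of all probes, and 0 of 7 reached an unadjusted p under 0.05, against 5.61% of all probes. Sox21, a SOXB2 factor that opposes SOXB1 proteins and promotes neuronal differentiation, read 7.13, 7.11 and 7.21 log2 units in Cre cultures, against 7.04, 6.80 and 7.06 in control cultures. All Cre arrays lay above all control arrays, the difference being 0.19 (SE 0.08) with a limma adjusted p of 0.927. With the replicate block Sox21 had an unadjusted p of 0.034 and a limma adjusted p of 0.494, and 3 of 17 alternatives gave it an unadjusted p under 0.05. Sox12, the third SOXC gene, read 6.51, 6.57 and 6.56 in Cre cultures, against 6.65, 6.59 and 6.70 in control cultures, a difference of -0.10 (SE 0.04, limma adjusted p = 0.927). All Cre arrays lay below all control arrays for Sox12, but with the local background its difference was 0.20, and 4 of 17 alternatives gave it an unadjusted p under 0.05 (smallest limma adjusted p = 0.529). The remaining 5 were Sox7 (-0.05), Sox13 (0.04), Sox15 (-0.01), Sox18 (0.07) and Sox30 (-0.0001), with overlapping groups. Of these, Sox15 had an unadjusted p under 0.05 in 1 of 17 alternatives, the local background, where it turned to 0.18 (unadjusted p = 0.0439, limma adjusted p = 0.760).

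Genes known to work with SOX proteins or upstream of them showed no shared direction. Of 23 tested, 9 were higher and 14 lower in Cre cultures, with a median of -0.02, and 2 had an unadjusted p under 0.05, against 5.84% of 17138 genes taken by their brightest probe. These were Chd7, the targeted gene itself, and Pou3f1, a POU factor of Schwann cells and of early neural cells, so Pou3f1 alone was counted beyond the target. Pou3f1 read 6.42 in Cre cultures and 6.23 in control cultures on average, a difference of 0.20 (SE 0.04, limma adjusted p = 0.496). Next came the glial factor Nfib at -0.30 (SE 0.15) and the neuronal gene repressor Rest at 0.32 (SE 0.18). The POU partners of SOX2 in neural cells, Pou3f2 and Pou3f3, stood at -0.03 and 0.02.

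Targets of SOXB1 proteins in neural precursors were higher for 11 and lower for 8 of 19 genes tested, with a median of 0.02. Of these 19, 1 had an unadjusted p under 0.05, against 5.84% of genes. This was Prom1, the gene of the progenitor surface protein prominin, at 8.17 in Cre cultures and 7.56 in control cultures on average, a difference of 0.61 (SE 0.08, limma adjusted p = 0.405). The intermediate filament gene Gfap stood at 0.33 (SE 0.17), Gli2 at 0.21 (SE 0.17) and Gli3 at 0.04 (SE 0.04). Gli3 was close to background (5.78 log2 units on average), so the offset compresses its difference. Targets of SOXC proteins in newborn neurons were higher for 7 and lower for 5 of 12 genes, with a median of 0.01. Of these 12, 2 had an unadjusted p under 0.05, against 5.84% of genes, and groups did not overlap for 2, against 10.5% of all probes. Both counts are the proneural factor Neurod1, higher at 0.46 (SE 0.07), and the microtubule regulator Stmn2, lower at -0.34 (SE 0.12). Neither passed (limma adjusted p = 0.405 and 0.800). Hip1 stood at 0.35 (SE 0.21) and Map2 at -0.11 (SE 0.07).

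Targets of SOX9 in glia and cartilage were higher for 11 and lower for 7 of 18 genes, with a median of 0.01, and 3 of 18 had an unadjusted p under 0.05, against 5.84% of genes, all higher in Cre cultures. These were the cartilage collagen gene Col9a3 at 0.41 (SE 0.03), the astrocyte folate enzyme gene Aldh1l1 at 0.72 (SE 0.17) and the growth factor receptor gene Fgfr3 at 0.26 (SE 0.10), at limma adjusted p of 0.405, 0.623 and 0.858. Groups did not overlap for 5 of the 18, in both directions, against 10.5% of all probes. Col11a1, another cartilage collagen gene, stood at -0.19 (SE 0.08), and Nfia, the gliogenic factor that SOX9 turns on, at 0.01 (SE 0.03). Nfia was close to background (5.77 log2 units on average), where the offset compresses any difference. Targets of SOX10 were higher for 7 and lower for 9 of 16 genes, with a median of -0.01 and 0 genes at an unadjusted p under 0.05. The myelin genes Opalin (-0.05) and Cnp (0.27), the lineage factor Nkx2-2 (-0.07) and the receptor gene Pdgfra (-0.07) had the smallest p among them. Opalin was also close to background (5.77 log2 units on average). Over all these lists 0 genes passed over all probes, and the lists describe what such genes do elsewhere, not SOX binding in these cells. They also share members with the cell type lists below, so some genes are counted in both. Aldh1l1 and Fgfr3 are also astrocyte markers, Prom1 is also a stem and progenitor marker, and Neurod1 and Stmn2 are also neuroblast and neuron markers.

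**Figure D4:**
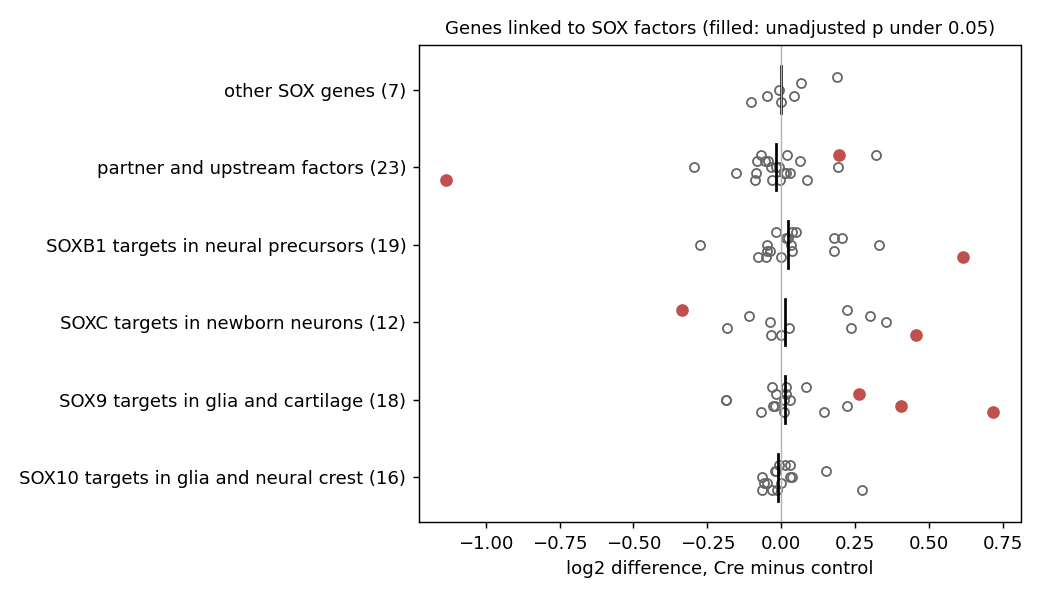
Log2 difference, Cre minus control (horizontal axis), of every tested gene in 6 lists linked to SOX factors, with the number tested in brackets; black lines are list medians and filled red points have an unadjusted p under 0.05. Medians lie between -0.02 and 0.02, and the filled points are Chd7, Pou3f1, Prom1, Neurod1, Stmn2, Col9a3, Aldh1l1 and Fgfr3.

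Markers of cell types were set beside these values, and 0 of them passed over all probes (smallest limma adjusted p = 0.405). Astrocyte markers were higher in Cre cultures for 19 of 20 genes (median 0.18), against 49.8% of 17138 genes by their brightest probe, and 5 of 20 had an unadjusted p under 0.05, against 5.84% of those genes, with Hepacam (0.32), Aqp4 (0.31), Aldh1l1 (0.72) and Glul (0.23) first by p. Their summed level was 14.24 to 14.60 log2 units in Cre cultures and 13.93 to 14.67 in control cultures. Microglia and macrophage markers were lower for 12 of 16 (median -0.11), and 6 of 16 had an unadjusted p under 0.05 (5 lower and 1 higher), against 5.84% of genes, among them C1qa (-0.67), C1qb (-0.71) and Tyrobp (-0.26), while Cd68 was higher (0.48). The summed microglia markers were 10.51 to 10.60 log2 units in Cre cultures and 10.59 to 10.73 in control cultures, and Itgam was below the limit on all 6 arrays. Such sums include the offset of every probe and weigh bright markers most, so they show changes of dim markers poorly. Neural stem and progenitor markers were higher for 5 of 14 (median -0.04), with Prom1, Id3 (0.18), Id1 (-0.09) and Nes (0.18) first by p. Of these 14, 2 had an unadjusted p under 0.05, both higher, against 5.84% of genes. Oligodendrocyte lineage markers were higher for 7 of 16 (median -0.01), with Cldn11 at 0.14 and Ugt8a at -0.10, and 0 of 16 had an unadjusted p under 0.05. Neuroblast and neuron markers were higher for 8 of 17 (median -0.0004), with Neurod1, Nefm (0.39), Nefl (0.16) and Stmn2 first by p. Of these 17, 4 had an unadjusted p under 0.05 (3 higher and 1 lower), against 5.84% of genes. Fibroblast and mural cell markers were higher for 7 of 14 (median -0.03, Col5a1 at 0.51, Des at 0.05, Pdgfrb at -0.06 and Rgs5 at 0.15), and 0 of 14 had an unadjusted p under 0.05. Endothelial markers were higher for 4 of 7 (median 0.01, Ly6c1 at 0.14, Eng at 0.03, Emcn at -0.04 and Esam at -0.13), with Cldn5 and Tek below the limit on all arrays. Of the 7, 1 had an unadjusted p under 0.05, against 5.84% of genes. The part of these cell types in the SOX values was not tested.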

How the data were processed

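Total RNA of 6 astrocyte samples was amplified to aminoallyl RNA and coupled to Cy5, according to the protocols in the labels. Scanner output, as deposited, gives a median intensity and a local background intensity per spot, joined over 3 scanner gains, per the file headers. The authors' deposited table holds scaled intensities whose median is 25 in every column; no source used here says how they were scaled. The deposited files name no genome build; the promoter coordinates are those of RefSeq GRCm38.p6.

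Spots were corrected by normexp against 2736 blank spots (nec of limma 3.58.1 in R 4.3.3, offset 50), log2 transformed and quantile normalised. Marked spots were left out (0 to 9 per array). Probes above background (blank mean plus 2 SD) on at least 3 arrays were kept, 20540 of 23473. Annotation symbols were checked through Entrez identifiers against RefSeq GRCm38.p6 (20556 matched, 0 changed). Cre and control were compared across all probes with limma (lmFit, eBayes, two-sided, Benjamini-Hochberg). The fit was tried on simulated independent arrays, which lacked the correlation between same-numbered arrays described below. The labels do not say whether replicates were separate cultures, so the p-values cover only variation among these arrays, possibly technical.

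Groups share replicate numbers. Deviations of same-numbered arrays correlated at 0.498, 0.425 and 0.436, and those of Cre and control arrays with different numbers at -0.37 to -0.17. The numbers were therefore taken to pair samples, but only in the fit with the replicate block and in the same-numbered differences. The main fit, with its SE, intervals and p-values, and the permutation tests and overlap counts left the pairing out. The members and lists were chosen with earlier results of these data known. All probes of the members and of Chd7 are named, every other SOX gene tested, and up to 4 genes per list with the smallest p, by the brightest probe; genes named beyond these (Pou3f2, Pou3f3, Nfia, and markers at 0 or below the limit) were chosen after their values were seen.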

Additional observations from a re-analysis of the deposited data

How the results depend on the processing

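Other background corrections, offsets, scalings, filters, fits and 1 array left out kept 0 SOX genes, 0 linked genes and 0 probes past the adjusted threshold. The authors' values centred on each array's median, and leaving out Cre and control replicate 2 together, were chosen after seeing the data. As deposited, the authors' values shift the median of all probes by -0.17. The median of the 8 SOX genes was 0.056 with plain subtraction, 0.086 with the local background, -0.16 with the authors' values as deposited, -0.036 with these centred, 0.042 without replicate 2 of both groups, and 0.0066 to 0.036 with 1 array left out. The brighter Chd7 probe stayed below 0 throughout, between -2.86 (the authors' deposited values) and -0.52 (local background). Directions turned for Sox3 (-0.034), Sox9 (0.21) and Sox10 (0.41) with the local background, for Sox1 (-0.0022) and Sox3 (-0.19) in the authors' values, for Sox3 (-0.070) in these centred, and for Sox4 (0.076) and Sox9 (0.068) without replicate 2 of both groups, where Sox6 was at -0.049. With 1 array left out the ranges were -0.36 to 0.064 for Sox4, -0.044 to 0.030 for Sox6, -0.13 to 0.094 for Sox9 and -0.10 to 0.047 for Sox10. The cause was not tested. With the replicate block, 1918 probes had an unadjusted p under 0.05, against 1153 without it, and 615 did with median scaling and 1826 in the authors' values; the block changed no call. No gene had several member probes and no file gave a slide or scan date, so those alternatives were not run. Dim probes (Sox3, Sox11, Sox8 and Sox10) limit what fold could be seen.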

Other observations

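Transcripts named after neighbouring SOX genes were looked at after the values were seen. Sox2ot, a long RNA whose gene overlaps Sox2, was above background on 3 of 6 arrays, at 5.72, 5.70 and 5.77 log2 units in Cre cultures and 5.68, 5.72 and 5.80 in control cultures. Sox6os was above background on 4 arrays and Sox1ot on 6, with differences of -0.03 (SE 0.03) and -0.01 (SE 0.08). None of these had an unadjusted p under 0.05 in limma, and no source used here says which strand each probe reads.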
